A study of Homo sapiens with 9 samples.

Results

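The enzymes that build fatty acids from acetyl-CoA and then lengthen, desaturate and activate them were followed in cranial neural crest cells (CNCCs) after acute loss of the transcription factor SOX9. The 10 genes were chosen by name, with earlier results of these data known. Shares over all genes are therefore given below as background and do not test this set. The 10 are ACLY, ACSS2, ACACA, FASN, ELOVL6, ELOVL5, SCD, FADS1, FADS2 and ACSL3. They are 10 of the 18970 gene symbols in each of 2 deposited count tables. All 10 passed the filter on low counts and were tested among 12037 genes for reads with T>C conversions and among 11710 genes for total reads. The filter asked for 1 CPM in 3 libraries (CPM is a read count scaled by the total of its library to a common size), and the total reads of ACSS2, the lowest of the 10, were at 13.7 CPM or more in every library.

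The starting cells were H9, a widely used human embryonic stem cell line, with a degron tag on SOX9. The 9 libraries formed 3 groups of 3 by time with 500 nM dTAGV-1 (0h, 3h, 24h), a small molecule that brings the tagged SOX9 to a ubiquitin ligase for degradation. The labels give the same concentration for the 0h group with a treatment time of 0h, and they name DMSO as the vehicle. In the labels, relative SOX9 stood at 100% before treatment and 0% in both treated groups. All 3 groups carried the tag and took up 4-thiouridine (4sU, 100 uM) for 2 h before harvest, so that label was added 1 h (3h group) and 22 h (24h group) into the treatment. Every time point came from 3 cultures: S9CC13_R6, S9CC47_R5 and S9CC47_R6, where S9CC13 and S9CC47 are 2 tagged clones and R5 and R6 are 2 batches of differentiation. Clone S9CC13 was present as 1 culture. Cells without the tag that received dTAGV-1 were not analysed here, so loss of SOX9 and other effects of the compound cannot be told apart in these groups.

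Fatty acid synthesis starts in the cytosol, where ATP citrate lyase (ACLY) and acetyl-CoA synthetase (ACSS2) make acetyl-CoA from citrate and from acetate. Acetyl-CoA carboxylase (ACACA) turns acetyl-CoA into malonyl-CoA, and fatty acid synthase (FASN) joins these units into palmitate. Elongases of the ELOVL family lengthen the chain in the endoplasmic reticulum, SCD and the FADS enzymes insert double bonds, and ACSL3 couples the free acid to CoA so that it can enter membranes and lipid droplets. Transcription of most of these genes is known to be driven by the sterol regulatory element binding proteins (SREBPs), which INSIG1 holds back in the endoplasmic reticulum when sterols are plentiful.

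Total reads ranged from 16955633 to 28782678 per library and T>C reads from 3130673 to 5475800. The T>C share of a library lay between 15.9% and 21.3%, and it was lowest in S9CC13_R6 at 3h, which also had the most extreme value (-0.71) of the surrogate variable, a covariate estimated from the counts, in the fit of T>C reads. All 12 cranial neural crest markers were at or above a mean of 1 CPM, with a summed level of 3751 to 3866 at 0h, 4186 to 4278 at 3h and 4859 to 5319 CPM at 24h. Of 6 pluripotent markers, LIN28A and DPPA4 were above 1 CPM and TDGF1 was at 0, and the list summed to 350 to 414 CPM at 0h, 304 to 349 at 3h and 282 to 306 at 24h. Of 6 chondrocyte markers, COL9A1 was above 1 CPM and COL10A1 was at 0, and the sums were 30.8 to 40.2, 33.9 to 39.7 and 21.1 to 24.8 CPM. These sums moved with time, as did the results below, and their part in them was not tested. In bulk RNA, fewer cells of a type and less RNA per cell cannot be told apart. Adipocyte markers, which would accompany the best known lipid-storing cell, summed to at most 0.262 CPM in any library, and ADIPOQ and LEP were at 0 throughout. Hepatocyte markers summed to at most 1.87 CPM, with SERPINA1 at 0. The SOX9 transcript, which does not report on the degraded protein, had mean normalized T>C reads of 9789 (0h), 16838 (3h) and 21449 (24h), and its log2 changes against 0h were 0.77 (SE 0.08) and 1.15 (SE 0.08). Each sample is 1 library of 1 culture. The p-values for T>C and total reads measure the spread between libraries that is left after time, batch and the surrogate variable. The main fit had no term for culture, so libraries of 1 culture were treated as independent.

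The 10 genes lay on 7 chromosomes of hg38. QuantSeq libraries read the 3′ end of the transcript, so a gene's counts come from around its last exon. The last exon of the canonical transcript of SCD was at 100360734 to 100364826 on chromosome 10, that of FASN at 82078338 to 82079280 on chromosome 17 and that of ELOVL6 at 110045846 to 110051762 on chromosome 4. FADS1 and FADS2 are neighbours on chromosome 11, and the last exon of FADS1 (61799627 to 61802462, minus strand) lies within the annotated span of FADS2 on the other strand. The last exon of ACLY (41866918 to 41867904 on chromosome 17) overlaps a long non-coding RNA on the other strand. Whether the counting used strand is not given in the sources used here, so reads of FADS1 and ACLY may include reads from those partners.

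Before dTAGV-1, 9 of the 10 genes stood in the upper part of the expression range of these cells. At 0h the mean level of total reads was 580 ± 30.9 CPM for FASN, 425 ± 60.6 for SCD, 275 ± 23.6 for ACLY, 236 ± 22.0 for FADS1 and 168 ± 6.60 for ELOVL6 (SD, n = 3 cultures). ACSL3 followed at 149 ± 5.05, FADS2 at 144 ± 21.7, ELOVL5 at 121 ± 18.6 and ACACA at 105 ± 0.953 CPM. A 3′ end library gives about one read per transcript end, so these CPM were not divided by gene length. The cultures of ACSL3 and FADS2, of FADS2 and ELOVL5, and of ELOVL5 and ACACA overlapped, while the other neighbours in this order did not. FASN stood above 98.0% of the tested genes. ACSS2 was far lower, at 16.2 ± 2.28 CPM, above 39.9% of the tested genes, and its T>C reads numbered 26 to 74 per library against 1587 to 3815 for SCD.

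T>C reads, which stand for RNA made during the label, rose for 5 of the 10 genes at 3h against 0h (adjusted p under 0.1 in DESeq2's Wald test), and none fell. Of all 12037 genes tested, 1.79% were called in this comparison and 1.01% were called higher. These shares are background, since the 10 were chosen with earlier results of these data known. The genes that rose were SCD, FADS2, ACLY, FASN and ELOVL6, by 1.34-fold to 1.64-fold, and they include at least 1 enzyme of each step except activation. The fitted change was above 0 for all 10 genes, with a median of 0.46 on the log2 scale against -0.01 over all genes tested. The 3 samples at 3h did not overlap the 3 samples at 0h for 7 of the 10 genes, against 11.3% of all genes tested.

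Among the desaturases, SCD, which introduces the first double bond into stearate and palmitate, gave the smallest adjusted p of the 10 genes. Its normalized T>C reads (counts divided by DESeq2's size factors) were 1653 in S9CC13_R6, 2166 in S9CC47_R5 and 1822 in S9CC47_R6 at 0h, and 2277, 3305 and 3311 in the same cultures at 3h. All 3 values at 3h lay above all 3 at 0h, with the smallest step in S9CC13_R6, and the fitted change was 0.72 on the log2 scale (SE 0.09, adjusted p = 5.23e-12). FADS2, the delta-6 desaturase that opens the route to long polyunsaturated fatty acids, had 276, 273 and 350 normalized T>C reads at 0h and 475, 499 and 442 at 3h. It rose by 0.63 (SE 0.15, adjusted p = 0.00224), and its groups did not overlap. FADS1, the delta-5 desaturase of the same route, had 601 to 722 at 0h and 716 to 855 at 3h. These ranges overlapped, and the change of 0.24 (SE 0.11, adjusted p = 0.564) did not pass the test although FADS1 was higher at 3h in 3 of 3 cultures.

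Of the pair that supplies acetyl-CoA, ACLY rose and ACSS2 did not pass the test. ACLY had 826, 817 and 758 normalized T>C reads at 0h and 1070, 1343 and 1109 at 3h, with the cultures in the same order. The groups were well apart, and the fitted change was 0.54 (SE 0.10, adjusted p = 2.13e-05). ACSS2 had 35.4, 33.9 and 39.6 at 0h and 43.7, 64.1 and 84.0 at 3h. Its groups did not overlap either and its fitted change of 0.88 was the highest of the 10, but with these low counts its SE was 0.34 and its adjusted p 0.31.

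In the synthesis of palmitate, FASN rose while ACACA, the enzyme before it, did not pass the test. FASN had 1376, 1285 and 1344 normalized T>C reads at 0h and 1836, 2146 and 1847 at 3h. The change was 0.51 (SE 0.11, adjusted p = 2.68e-04). ACACA had 320 to 348 at 0h and 343 to 443 at 3h, with overlapping groups and a fitted change of 0.25 (SE 0.17, adjusted p = 0.89). Of the elongases, ELOVL6, which extends palmitate to stearate, had 1034, 971 and 1034 at 0h and 1566, 1461 and 1215 at 3h. It rose by 0.42 (SE 0.09, adjusted p = 2.86e-04), here with the smallest step in S9CC47_R6. ELOVL5, which extends polyunsaturated chains, changed by 0.21 (SE 0.13, adjusted p = 0.824), and S9CC47_R5 was the culture in which it was not higher. ACSL3 was higher in 3 of 3 cultures without overlap, from 1421 to 1508 at 0h to 1665 to 1764 at 3h, but its fitted change was 0.22 (SE 0.08, adjusted p = 0.273).

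The same 5 genes were called with edgeR, with TMM factors, with size factors of total reads, with no filter, without the surrogate variable, with the culture as a block and without the S9CC13_R6 library at 3h. The calls depended on having all 3 cultures. Fewer were called with 1 culture left out: 3 without S9CC13_R6 (ACLY, FASN and SCD), 1 without S9CC47_R5 (SCD) and 0 without S9CC47_R6, where 5 genes of 11767 were called in all. With the surrogate variable dropped as well, 2 were called without S9CC13_R6, 1 without S9CC47_R5 and 4 without S9CC47_R6 (ACLY, ELOVL6, FADS2 and FASN). All 10 fitted changes stayed above 0 in each of these fits.

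**Figure D1:**
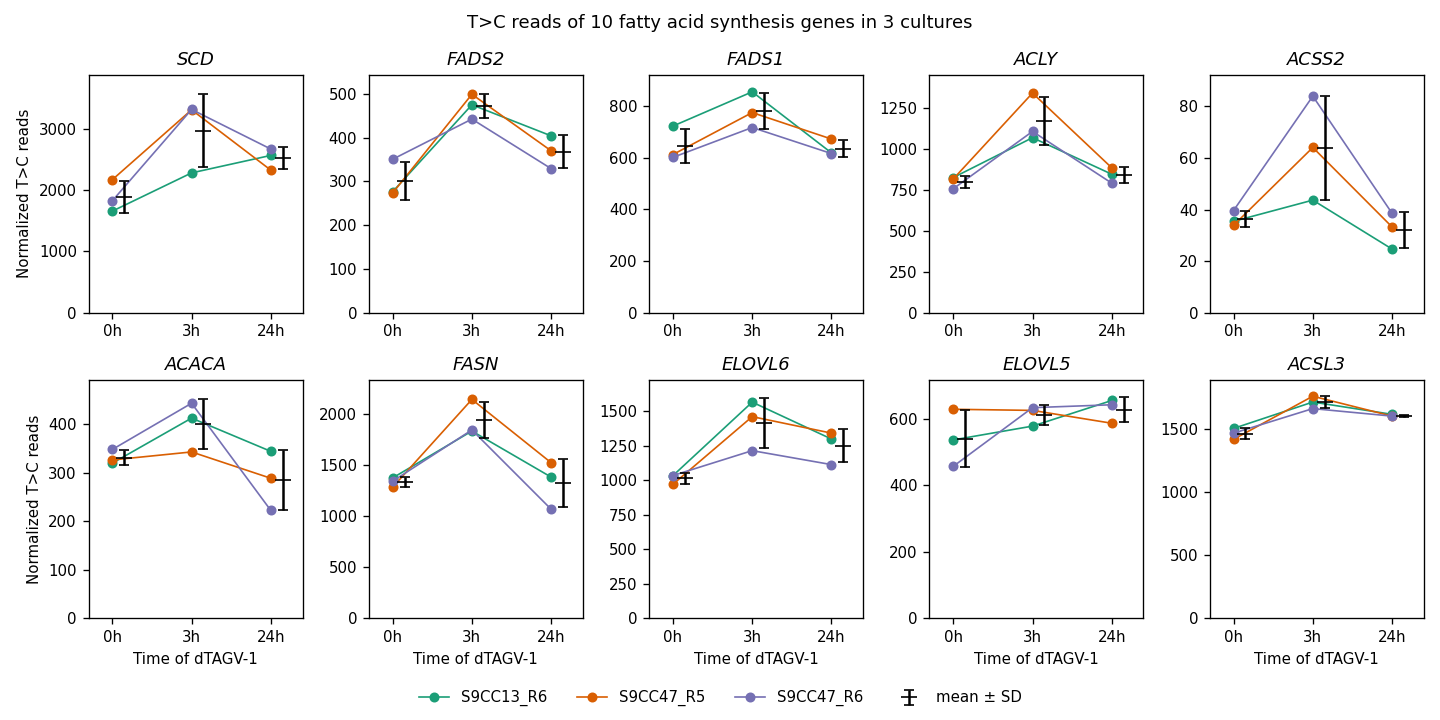
Normalized T>C reads (y axis, counts divided by size factors, from 0) of each of the 10 genes at 0h, 3h and 24h of dTAGV-1 (x axis). Coloured points and lines are the 3 cultures and black bars are the mean ± SD (n = 3). SCD rose from a mean of 1880 at 0h to 2964 at 3h and stood at 2516 at 24h, while ACLY and FASN were back near their 0h means at 24h.

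The promoters of the genes that rose together at 3h are shown because the 5 share a direction, and because the letters around their start sites can be compared. RefSeq promoter sequences (GRCh38.p14, from 250 bases before to 50 bases after a start site) were found for 9 of the 10 genes, with 14 entries in all, and FASN had none. For each gene the entry nearest to the canonical start site in GENCODE is printed, which for FADS2 is still 11896 bases from it. Capitals mark the letters CCAAT, read by the factor NF-Y, and GGGCGG, read by Sp1, on either strand.
SCD (chr10:100346983-100347282, plus strand): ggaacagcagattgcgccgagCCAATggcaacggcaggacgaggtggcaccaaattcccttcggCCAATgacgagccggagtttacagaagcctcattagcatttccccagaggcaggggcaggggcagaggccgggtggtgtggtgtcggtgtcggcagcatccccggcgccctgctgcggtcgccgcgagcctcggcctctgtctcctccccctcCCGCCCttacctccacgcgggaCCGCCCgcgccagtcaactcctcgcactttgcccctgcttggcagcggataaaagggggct
FADS2 (chr11:61816154-61816453, plus strand): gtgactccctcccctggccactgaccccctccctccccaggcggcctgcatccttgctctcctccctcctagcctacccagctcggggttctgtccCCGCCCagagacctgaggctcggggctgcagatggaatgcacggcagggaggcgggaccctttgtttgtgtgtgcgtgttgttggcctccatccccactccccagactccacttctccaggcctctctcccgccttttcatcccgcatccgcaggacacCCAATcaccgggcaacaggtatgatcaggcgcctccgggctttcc
ACLY (chr17:41918902-41919201, minus strand): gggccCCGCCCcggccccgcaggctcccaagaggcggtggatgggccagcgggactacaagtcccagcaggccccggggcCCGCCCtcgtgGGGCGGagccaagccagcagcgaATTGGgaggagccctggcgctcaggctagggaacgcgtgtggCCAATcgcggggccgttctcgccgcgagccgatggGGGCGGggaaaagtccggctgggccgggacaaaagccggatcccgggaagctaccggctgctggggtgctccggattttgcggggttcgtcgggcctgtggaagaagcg
ELOVL6 (chr4:110198566-110198865, minus strand): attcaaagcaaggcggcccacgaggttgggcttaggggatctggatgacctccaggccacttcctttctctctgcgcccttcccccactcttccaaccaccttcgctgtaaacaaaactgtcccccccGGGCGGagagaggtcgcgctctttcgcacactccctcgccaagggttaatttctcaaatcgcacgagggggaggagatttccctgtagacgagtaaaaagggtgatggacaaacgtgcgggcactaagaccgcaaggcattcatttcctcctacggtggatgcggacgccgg

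Promoters of SCD and ACLY held CCAAT at 2 places each, that of FADS2 held it once, 5 bases after the start site, and that of ELOVL6 did not hold it. CCAAT was present in at least 1 entry of 7 of the 9 genes and in 9 of the 14 entries, against 34.6% of all 35116 promoters in the table. In the entry nearest to the canonical start site it was present for SCD, FADS2, ACLY, ELOVL5 and ACSL3. For ACACA and ACSS2 it was present only in entries farther away. The 2 entries of ACLY overlap, so the same letters were counted in both. GGGCGG was present for 8 of the 9 genes and in 11 of the 14 entries, against 45.0% of all promoters. The E-box CACGTG was found for 1 gene (ELOVL5), against 7.26% of promoters. The SREBP letters TCACNCCAC were found for 0 of the 9 genes and in 1.13% of all promoters. Both strands were searched for each motif, and overlapping matches were counted. Genes with several entries had more chances to hold a motif, and these matches describe letters in a short window and not sites in use.

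At 24h the pattern was narrower. T>C reads of 2 of the 10 genes were called against 0h, both higher, while 4.98% of all genes tested were called. ELOVL6 had 1299, 1342 and 1114 normalized T>C reads at 24h, all above the 0h samples, and its change was 0.40 (SE 0.09, adjusted p = 0.00104). SCD had 2562, 2321 and 2665, also above all 0h samples, with a change of 0.30 (SE 0.10, adjusted p = 0.0488). With the culture as a block ELOVL6 lost its call (0.30, adjusted p = 0.132) and SCD kept it, and with a surrogate variable added to the block SCD lost it (0.26, adjusted p = 0.233). Leaving out any 1 culture left neither called, and leaving out the S9CC13_R6 library at 3h left ELOVL6 alone. The other 8 changes ran from -0.41 (ACSS2) to 0.33 (FADS2), none past the test.

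Between 3h and 24h, T>C reads of 4 of the 10 genes fell, against 1.14% of all genes called and 0.598% called lower. All 10 fitted changes were below 0, with a median of -0.36 against 0.01 over all genes tested, while with size factors of total reads ELOVL6 (0.08), ELOVL5 (0.04) and ACSL3 (0.01) were above 0. ACLY had 847, 886 and 792 normalized T>C reads at 24h, all below the 3h samples and within or near the range at 0h, and it fell by 0.47 on the log2 scale (SE 0.11, adjusted p = 0.00985). FASN had 1384, 1525 and 1069 at 24h, also below all 3h samples, and fell by 0.48 (SE 0.12, adjusted p = 0.0119). ACSS2 had 24.7, 33.2 and 38.5 and fell by 1.29 (SE 0.38, adjusted p = 0.0662). SCD fell by 0.42 in the fit (SE 0.10, adjusted p = 0.0106), but its groups overlapped and it was lower in 2 of 3 cultures, with a change of 0.17 upwards in S9CC13_R6.

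These falls were less stable than the rises at 3h. With the culture as a block instead of batch and the surrogate variable, ACLY and FASN were called, SCD (-0.22, adjusted p = 0.428) and ACSS2 (-0.98, adjusted p = 0.102) were not, and with a surrogate variable added ACLY and SCD were. With size factors taken from total reads, SCD alone was called, and leaving out 1 culture left 0 to 1 of the 10. Without S9CC13_R6 SCD was the gene called, and without S9CC47_R5 or S9CC47_R6 none was. Without S9CC47_R6 the fitted change of SCD was 0.03.

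**Figure D2:**
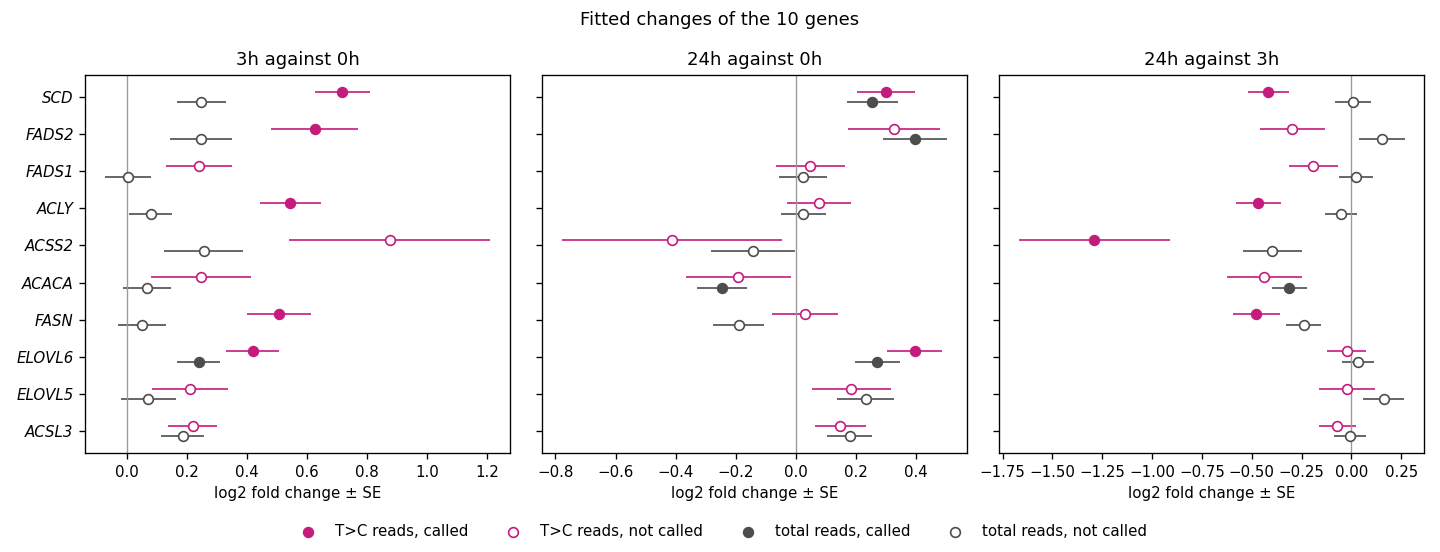
Fitted log2 fold changes with their SE (x axis) of the 10 genes (y axis) for 3 comparisons of times, from DESeq2 over all 9 libraries. Pink points are T>C reads, grey points are total reads, and filled points passed an adjusted p of 0.1. At 3h all T>C values lie above 0 and exceed the value for total reads of the same gene.

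In total reads, which hold RNA made before and during labelling, 1 of the 10 genes was called at 3h against 1.89% of all genes. This was ELOVL6, with 3532 to 3779 normalized total reads at 0h and 4003 to 4980 at 3h (0.24, SE 0.07, adjusted p = 0.0499). It was not called with the culture as a block (adjusted p = 0.399), in edgeR, with any 1 culture left out or without the S9CC13_R6 library at 3h. All 10 fitted changes were again above 0, from 0.00 (FADS1) to 0.26 (ACSS2), with a median of 0.13. SCD, at 8297, 10764 and 8806 before and 8294, 10961 and 12446 at 3h, was level in S9CC13_R6 and S9CC47_R5 and higher in S9CC47_R6 (0.25, SE 0.08, adjusted p = 0.113).

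At 24h, 4 of the 10 genes were called in total reads, a share to be read against 15.0% of all genes. FADS2 rose from 2582, 3287 and 3603 to 4521, 4006 and 4538 (0.40, SE 0.11, adjusted p = 0.00479), and ELOVL6 rose by 0.27 (SE 0.07, adjusted p = 0.00497). SCD had 12161, 10857 and 13585 at 24h, above all 0h samples, with S9CC47_R5 almost unchanged from its own 0h value (0.26, SE 0.09, adjusted p = 0.0297). ACACA went the other way, from 2267 to 2342 at 0h to 1817 to 2004 at 24h, lower in 3 of 3 cultures (-0.25, SE 0.08, adjusted p = 0.0349). With the culture as a block ELOVL6 was not called (0.20, adjusted p = 0.226), with a surrogate variable added to the block SCD (0.13, adjusted p = 0.53) and ACACA (-0.24, adjusted p = 0.184) were not, and without S9CC13_R6 or without S9CC47_R6 none of the 10 was. Without S9CC47_R5 ELOVL5 was the gene called, and without the S9CC13_R6 library at 3h ELOVL6 was. Without S9CC13_R6 the fitted change of SCD was -0.07.

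Between 3h and 24h ACACA was the gene of the 10 called in total reads (-0.31, SE 0.09, adjusted p = 0.0169), with 5.39% of all genes called. Its level at 24h was below all samples at 3h, which ran from 2297 to 2561. With the culture as a block FASN was called too, and with a surrogate variable added to the block, with any 1 culture left out or without the S9CC13_R6 library at 3h none was. Its T>C reads fell short of the test in every comparison.

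T>C reads were also set against the unconverted reads of the same libraries, with library, batch and time in 1 model. This ratio rose at 3h for SCD (log2 change 0.62, SE 0.09, adjusted p = 9.15e-09), ACLY (0.60, SE 0.11, adjusted p = 3.03e-05) and FASN (0.57, SE 0.10, adjusted p = 1.20e-05), each in 3 of 3 cultures. These 3 of 10 genes compare with 0.282% of 11361 genes called in all and 0.211% called higher. FADS2 (0.52, SE 0.16, adjusted p = 0.216) and ELOVL6 (0.28, SE 0.10, adjusted p = 0.55) did not pass, and FADS2 was called with the culture as a block (adjusted p = 0.0588). SCD, ACLY and FASN were called in every fit except that without S9CC47_R5, where SCD alone was called. At 24h the ratio was called for 0 of the 10 genes in DESeq2, where 0.0176% of all genes were called, in edgeR's quasi-likelihood test too, and 0 of the 10 had an unadjusted p under 0.05.

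The T>C share, the percent of a gene's reads that carry a conversion, gives the same relation in plain numbers. For SCD it was 19.3%, 21.4% and 21.0% at 0h and 23.0%, 28.9% and 26.9% at 3h, again in the order S9CC13_R6, S9CC47_R5, S9CC47_R6. The Wilson 95% interval of the lowest of these 3h values was 22.1% to 24.0%, and it covers counting error only. The mean share of ACLY over 0h, 3h and 24h was 13.6% ± 0.575, 17.5% ± 1.34 and 14.4% ± 0.586 (SD, n = 3), and that of FASN 10.7% ± 0.443, 13.7% ± 1.17 and 12.9% ± 0.960. ACSS2 had 9.48%, 13.2% and 21.6% at 3h from 348, 561 and 333 total reads. The Wilson 95% interval of the highest value, 17.5% to 26.4%, did not overlap those of the other cultures, and the cause of this spread was not tested. The median over all 11561 genes tested in both tables moved the other way over the same step, from 27.4% at 0h to 25.2% at 3h. By culture it went from 26.1% to 22.3% in S9CC13_R6 and from 28.3% to 25.7% in S9CC47_R5. In S9CC47_R6 it was almost level, at 27.5% and 27.0%.

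The 10 genes differed more from each other in this share than between times. At 0h it ran from 9.69% ± 0.785 in FADS2 and 10.5% in ACSS2 to 28.0% ± 1.37 in ELOVL6 and 45.7% ± 2.03 in ACSL3. FADS2, ACSS2, FASN, FADS1, ACLY, ACACA, SCD and ELOVL5 lay below the median of all genes tested, FADS2 above 7.90% of them and ACSL3 above 81.3%. The share rises with the rate at which a gene's RNA is replaced and also with the number of T bases in the counted stretch, which was not measured here. FADS1 and FADS2, which work on the same route, had shares of 12.7% and 9.69%, and the elongases ELOVL6 and ELOVL5 had 28.0% and 20.7%.

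**Figure D3:**
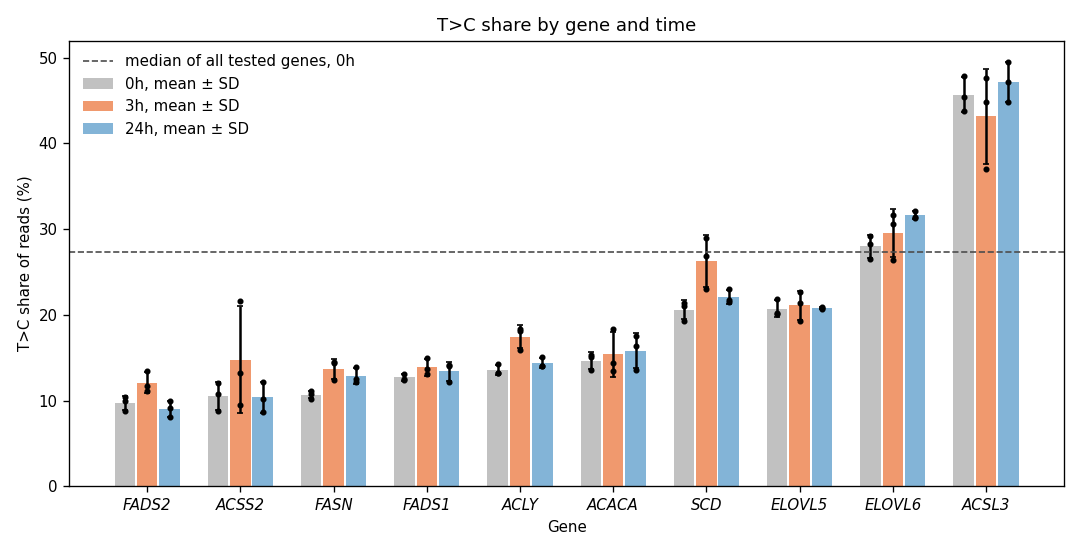
T>C share of reads in percent (y axis, from 0) for the 10 genes (x axis, ordered by their share at 0h) at 0h, 3h and 24h. Bars and whiskers are the mean ± SD, black points are the 3 cultures, and the dashed line is the median of all tested genes at 0h (27.4%). The bars of SCD, ACLY and FASN are highest at 3h, and ACSL3 and ELOVL6 stand above the line at every time.

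Some of the 10 genes kept 1 direction of difference between cultures at every time. The share of all genes that did so was not counted, so the counts below do not set the 10 apart. In T>C reads, 4 of the 10 genes kept 1 direction at all 3 times between clones S9CC13 and S9CC47 of batch R6, and 3 of 10 between batches R5 and R6 of clone S9CC47. ACSS2 was lower in S9CC13_R6 than in S9CC47_R6 by 0.57 on the log2 scale on average and SCD by 0.25, whereas FADS1 was higher by 0.17. ACSL3 was counted too, with differences of 0.036 (0h), 0.044 (3h) and 0.012 (24h). In total reads FADS2 was lower in S9CC13_R6 at 0h (-0.48) and 3h (-0.25) and level at 24h (-0.01). Each culture is 1 culture, so these differences carry no test.

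Genes around the pathway were read through 7 lists. Of 15 tested regulators of lipid synthesis, 2 rose in T>C reads at 3h and none fell, with a list median of 0.21. At 3h, 1.79% of all genes tested were called and 1.01% were called higher, which is the background for each list. INSIG1, the sterol-sensing anchor of the SREBPs, rose from 803, 919 and 707 normalized T>C reads to 1949, 2167 and 1903 (1.29, SE 0.11, adjusted p = 4.25e-26). LPIN1, a phosphatidate phosphatase that also acts on SREBP in the nucleus, rose from 309, 354 and 349 to 507, 646 and 499 (0.71, SE 0.14, adjusted p = 1.52e-04). Both stood apart from their 0h samples, and both fell between 3h and 24h, INSIG1 by 0.59 (adjusted p = 7.86e-04) and LPIN1 by 0.64 (adjusted p = 0.0122). The rise of LPIN1 at 3h was not called with any 1 culture left out (adjusted p = 0.247 without S9CC13_R6 and 0.123 without S9CC47_R5). The fall of LPIN1 was not called with block and surrogate variable (adjusted p = 0.153) or with any 1 culture left out, and that of INSIG1 was not called without S9CC47_R5 (adjusted p = 0.419) or without S9CC47_R6 (adjusted p = 1.0). The transcripts of the SREBPs themselves did not pass the test at 3h: SREBF2 changed by 0.21 (SE 0.14, adjusted p = 0.885) and the scarce SREBF1 by 0.63 (SE 0.38, adjusted p = 0.818).

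Of 7 genes that supply citrate and NADPH, IDH1, the cytosolic isocitrate dehydrogenase, rose at 3h (0.46, SE 0.11, adjusted p = 0.00235), and the list median was 0.24. Its groups overlapped and it was not called with the culture as a block (adjusted p = 0.39). Of 8 genes listed as partners of the elongation cycle, which include cytochrome b5 genes, CYB5B rose (0.52, SE 0.16, adjusted p = 0.072). CYB5B is the cytochrome b5 of the outer mitochondrial membrane. Its groups overlapped again, and it was not called under the block (adjusted p = 0.361). The list medians were 0.09 for the elongation partners, -0.05 for 11 genes that put fatty acids into glycerolipids, 0.12 for 15 genes of mitochondrial fatty acid oxidation and -0.11 for 8 genes of mitochondrial fatty acid synthesis. None of the genes on the last 3 lists was called in T>C reads at any comparison. In total reads at 24h, 3, 2 and 1 genes of these last 3 lists were called, among 15.0% of all genes.

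**Figure D4:**
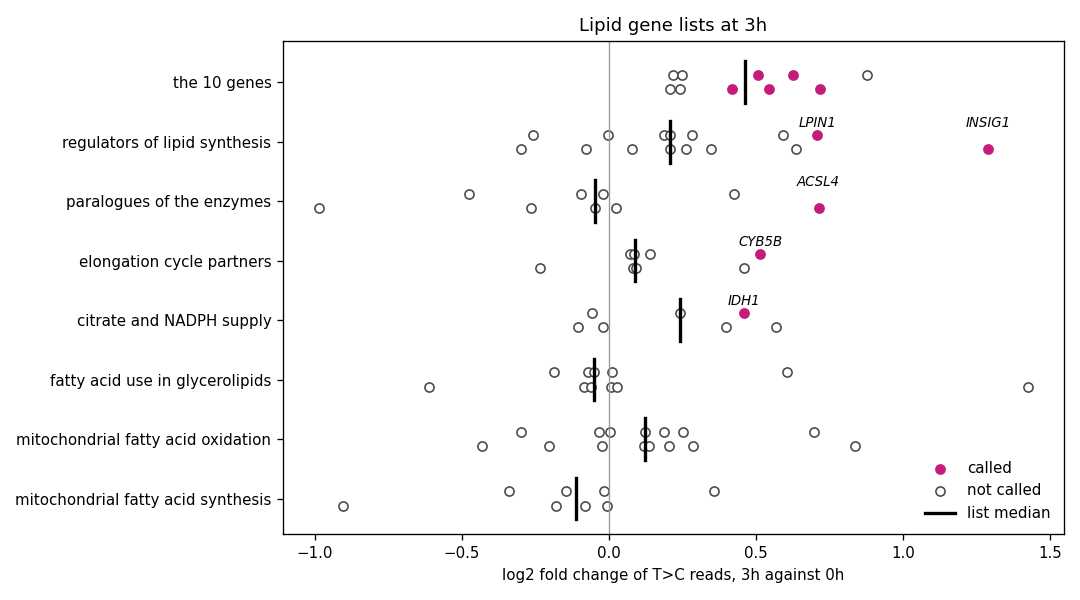
Fitted log2 fold change of T>C reads at 3h against 0h (x axis) for the 10 genes and for the tested genes of 7 related lists (y axis). Pink points passed an adjusted p of 0.1, open points did not, and black bars are list medians. The median of the 10 genes is 0.46, and those of the 7 lists lie between -0.11 and 0.24.

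The levels of the enzymes' paralogues were also read. Of 15 paralogues listed, 14 were in the tables and 9 were tested. At 0h ACACB stood at 14.6 ± 3.19 CPM against 105 for ACACA, and SCD5 at 8.18 ± 2.06 against 425 for SCD. FADS3 had 3.20 CPM, ACSS1 1.99, ELOVL1 11.8, ELOVL4 20.6 and ELOVL2 39.2, while ELOVL3 and ELOVL7 were under 1 CPM in all libraries. Of the other long-chain acyl-CoA synthetases, ACSL4 had 21.2 CPM and ACSL1 2.77, and ACSL5 and ACSL6 were at or near 0. Where 1.79% (3h) and 4.98% (24h) of all genes were called, ACSL4, which prefers arachidonate, was the paralogue whose T>C reads were called. They rose from 208, 171 and 204 to 315, 251 and 372 at 3h (0.71, SE 0.15, adjusted p = 2.92e-04) and were still higher at 24h (0.61, SE 0.16, adjusted p = 0.00519). The rise at 3h was not called without S9CC13_R6 (adjusted p = 0.718) or without S9CC47_R6. That at 24h was not called with any 1 culture left out (adjusted p = 0.356 without S9CC47_R5). In total reads at 24h, where 15.0% of all genes were called, 3 of the 9 paralogues were: ACSL4 (0.50, SE 0.13, adjusted p = 0.0019) and ELOVL4 (0.35, SE 0.14, adjusted p = 0.0728) rose and ACACB fell by 0.63 (SE 0.18, adjusted p = 0.00791).

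The profile shared by the 10 genes was also compared with that of every other gene. It was taken as the mean standardized log2 T>C level of the 9 members with at least 50 normalized T>C reads on average, which leaves out ACSS2, over the 9 libraries. Of 8667 genes outside the members at that level, the 5 with the highest Pearson r were INSIG1 (0.98), CETN2 (0.97), FDFT1 (0.97), HMGCS1 (0.96) and MSMO1 (0.95). FDFT1, HMGCS1 and MSMO1 encode enzymes of cholesterol synthesis, and CETN2 encodes a centrin of the centriole. Their T>C reads at 3h changed by 1.04 (HMGCS1), 0.87 (MSMO1), 0.70 (FDFT1) and 0.59 (CETN2) on the log2 scale. The 9 libraries share time, culture and depth, and these genes were picked by likeness to a profile that is higher at 3h than at 0h. Their values are therefore descriptions. Among the members, r to the profile ran from 0.44 (ELOVL5) to 0.95 (ACLY). Each member is part of the profile, which raises its r, so these values do not compare with those of genes outside. The closest pair was ACLY and FASN (r = 0.93), and ELOVL5 was in each of the 3 loosest pairs.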

How the data were processed

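SLAM-seq libraries of 9 CNCC samples were analysed from 2 deposited tables of raw counts, one of total reads and one of reads with T>C conversions, which the authors made per gene from QuantSeq 3′ end reads on hg38. The counted region set and the use of strand are not given in the sources used here. Groups and cultures were taken from the labels. Symbols were matched to GENCODE release 44 and RefSeq, and 118 of 18970 had no match. Genes that code for protein and reached 1 CPM in 3 or more samples were tested in R 4.3.3 with DESeq2 1.42.0 (Wald test, all 9 samples, batch, 1 surrogate variable from sva 3.50.0 and time, independent filtering off). Genes were called at a Benjamini-Hochberg adjusted p under 0.1. The ratio of T>C to unconverted reads was tested as a read type by time term. Shares and culture differences were described without a test, and culture changes used a pseudocount of 1. Wilson 95% intervals cover counting error only, since reads carried no molecular identifiers. The steps were tested on simulated data.

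Alternatives were edgeR 4.0.16, TMM factors, no filter, no surrogate variable, culture as a block, size factors of total reads and leaving out each culture. Sample titles give clone and batch, which pair the samples of a culture, and deviations of same-culture samples correlated at 0.0169 to 0.286 in T>C reads and at -0.0566 to 0.606 in total reads. The members and lists were chosen with earlier results of these data known. All 10 members, the list genes called in T>C reads, paralogues by level and the 5 genes most like the members' profile were named. ACACB and ELOVL4 were named for their total reads after its values were seen.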

Additional observations from a re-analysis of the deposited data

Results flagged for a closer look

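Reads at 24h of dTAGV-1 differed from those at 3h, by the DESeq2 Wald test of the 2 times, for the genes below. No untreated group stands at either time, so treatment and time cannot be told apart. Among the enzymes the log2 difference in T>C reads (24h against 3h) was -0.42 for SCD, -0.47 for ACLY, -0.48 for FASN and -1.29 for ACSS2, and in total reads it was -0.31 for ACACA. With 1 culture left out, these calls were lost, except that of SCD without S9CC13_R6. Among the regulators the difference in T>C reads was -0.59 for INSIG1 and -0.64 for LPIN1. INSIG1 was not called without S9CC47_R5 or without S9CC47_R6, and LPIN1 was not called with any 1 culture left out. Genes chosen for their likeness to the enzymes' profile over these libraries, a profile that is lower at 24h than at 3h, are given as a description: the difference was -0.55 for FDFT1, -0.82 for HMGCS1 and -0.50 for MSMO1. The SOX9 transcript differed the other way, by 0.38, and was not called with the culture as a block and a surrogate variable (adjusted p = 0.204). It was also not called without S9CC13_R6 or without S9CC47_R6.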

How the results depend on the processing

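In T>C reads at 3h, 5 genes were called with every other tool, normalization, filter and covariate set tried. Counts of members called with 1 culture left out ran from 0 to 3, and without the surrogate variable as well they were 2 (without S9CC13_R6), 1 (without S9CC47_R5) and 4 (without S9CC47_R6). In T>C reads at 24h against 0h, where 2 were called, 1 was called without the surrogate variable, with the block, with block and surrogate variable and without the S9CC13_R6 library at 3h. The range with 1 culture left out was 0 to 0, and without the surrogate variable 0, 1 and 0. In T>C reads between 3h and 24h, where 4 were called, 2 were called without the surrogate variable, with the block and with block and surrogate variable, and 1 with size factors of total reads. With 1 culture left out 0 to 1 were called, and without the surrogate variable 1, 1 and 0.

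In total reads at 3h, where 1 gene was called, 0 were called in edgeR, without the filter, without the surrogate variable, with the block, with any 1 culture left out (0 to 0, also without the surrogate variable) and without the S9CC13_R6 library at 3h, and 2 with block and surrogate variable. In total reads at 24h, where 4 were called, 2 were called without the surrogate variable and with block and surrogate variable, and 1 without the S9CC13_R6 library at 3h. With 1 culture left out 0 to 1 were called, and without the surrogate variable 0, 3 and 1. Between 3h and 24h, where 1 was called, 2 were called in edgeR, without the filter, without the surrogate variable and with the block, and 0 with block and surrogate variable, without the S9CC13_R6 library at 3h and with 1 culture left out (0 to 0, and without the surrogate variable 0, 1 and 0). For the ratio at 3h, with 3 called, leaving out 1 culture gave 1 to 4. The median share of 14.1% stayed within its spread (14.03% to 14.2%) with 1 culture left out. For the culture differences in T>C reads, the comparisons of clones and of batches were counted together. Of these, 5 in place of 7 kept 1 direction at every time when T>C reads were scaled by library total. The cause of these changes was not tested.

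Small changes turned sign. At 24h in T>C reads FASN was -0.021 without the surrogate variable and -0.026 with the block, and ran from -0.082 to 0.17 with 1 culture left out. Without the surrogate variable as well it was -0.043 (without S9CC13_R6) and -0.15 (without S9CC47_R5). FADS1 was -0.022 without the surrogate variable and -0.018 with the block, and ran from -0.046 to 0.13 with 1 culture left out, or was -0.096 and -0.046 without the surrogate variable. ELOVL5 ran from -0.063 to 0.37 with 1 culture left out. Between 3h and 24h ELOVL5 was 0.040 without the surrogate variable, 0.039 with the block and 0.042 with size factors of total reads, and ran from -0.27 to 0.080 with 1 culture left out, or was 0.10 and 0.047 without the surrogate variable. ELOVL6 was 0.080 and ACSL3 0.0080 with size factors of total reads. With 1 culture left out ELOVL6 ran from -0.23 to 0.032 and SCD from -0.56 to 0.032. With 1 culture left out, the change of SCD in total reads lay between -0.11 and 0.26 (3h) and between -0.066 and 0.32 (24h), and the ratio of ACSL3 at 3h from -0.069 to 0.088.

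With the culture as a replicate block, the counts of members called were 5, 1 and 2 in T>C reads (3h, 24h, and between them), 0, 3 and 2 in total reads, and 4 and 0 in the ratio. The calls of ACSL4, ELOVL4 and ACACB in total reads at 24h were not followed under the block or the other alternatives. For the other named calls, the block changed those given beside the results and no others. With a surrogate variable added, calls were also lost for ACSS2 (adjusted p = 0.771) and FASN (adjusted p = 0.112) between 3h and 24h in T>C reads, for CYB5B at 3h (adjusted p = 0.106) and for ACACA between 3h and 24h in total reads (adjusted p = 0.214), and SCD was called at 3h in total reads (adjusted p = 0.0278). Over all genes, the block called 530 in place of 137 between 3h and 24h in T>C reads and 1544 in place of 631 in total reads. Without the surrogate variable 373 were called between 3h and 24h in T>C reads, and without S9CC47_R6 5 in place of 216 at 3h. ACSS2 had the lowest counts of the 10 genes, with 26 to 74 T>C reads per library, and its SE at 3h was 0.34.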
